A study of Mus musculus with 36 samples.

Results

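The 9 genes described here are transcripts used to recognise neutrophils and monocytes that enter an inflamed organ: S100a8, S100a9, Retnlg, Csf3r, Cxcr2, Ly6c2, Ccr2, Lyz2 and Il1b. They were taken by symbol from a table of 34829 Ensembl genes, and all 9 were in it. All are protein-coding, and positions are those of whole genes in the GENCODE mouse annotation of GRCm38. Liver RNA came from 36 samples of the inbred mouse strain C57BL6/J, at an ambient temperature of 22 °C or 30 °C and 0, 4, 12 or 24 h after lipopolysaccharide (LPS), the bacterial outer-membrane lipid that triggers innate immunity. At 22 °C there were 4 samples each of 0 h and 4 h and 5 each of 12 h and 24 h. At 30 °C there were 5 each of 0 h and 24 h and 4 each of 4 h and 12 h. The labels name no mutation, and give neither sex, age nor LPS dose. They name no vehicle group at the later times, so a change since 0 h due to LPS and one due to time of day or handling cannot be told apart. Nothing in them states that each sample is a different animal. The p-values therefore measure only the spread among these samples, which may be technical.

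Neutrophils are short-lived phagocytes that carry S100A8 and S100A9 as their main cytosolic proteins and leave the blood along gradients of CXC chemokines. Classical monocytes carry LY6C2 and the chemokine receptor CCR2, and become macrophages in tissue. The liver also holds Kupffer cells, its resident macrophages, which share lysozyme (Lyz2) and interleukin-1 beta (Il1b) with the incoming cells.

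The unit throughout is the deposited scaled reads per base, called signal here. Libraries held 557000 to 2744000 estimated reads (median 1009000), and 3 reads corresponded to 1.33 to 5.05 units of signal, so values at or under that level carry little information. With limma on log2(signal + 1), 5 of the 9 genes (S100a8, S100a9, Il1b, Lyz2 and Cxcr2) passed the filter of a mean signal of at least 5 and were tested among 8702 genes. Retnlg, Csf3r, Ly6c2 and Ccr2 had means of 2.67, 2.56, 3.46 and 1.00 and were tested in a second fit without the filter, on 22490 genes. The filter's mean runs over all groups, so a gene high in 1 group can be tested because of that group. Differences are log2 units ± SE on this scale, where the added 1 shrinks the differences of low genes. Where the libraries of 1 group are said to lie wholly above or below those of another, this describes the printed values only. The share of all genes doing so is given only for temperature at 24 h. In liver tissue, fewer cells of a type and less RNA per cell cannot be told apart. The tissue label was matched by its hepatocyte genes, whose 7 members summed to 11132 to 35918 in every library. One library stood apart: in replicate 4 at 30 °C and 4 h, the predicted gene Gm10800 took 14.2% of the signal against at most 0.798% elsewhere, and this library also had the highest Cxcr2 value. Replicate 3 at 30 °C and 0 h held the highest Lyz2 value.

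S100a8 and S100a9 encode the 2 subunits of calprotectin, a calcium- and zinc-binding protein of neutrophils and inflammatory monocytes. They are neighbours on chromosome 3 (GRCm38), S100a8 at chr3:90668978-90670035 on the plus strand and S100a9 at chr3:90692632-90695721 on the minus strand, 22597 bp apart. Because these 2 genes moved together in the data below, the sequence before each start is shown, from RefSeq (GRCm38.p6), read 5′ to 3′ on the gene's strand. The S100a8 stretch is chr3:90668821-90668977 (plus), which stops where the GENCODE gene begins, 93 bases short of the RefSeq start, and the S100a9 stretch is chr3:90695722-90695971 (minus). Capitals mark the PU.1 match in S100a8 and the C/EBP match in S100a9.
S100a8: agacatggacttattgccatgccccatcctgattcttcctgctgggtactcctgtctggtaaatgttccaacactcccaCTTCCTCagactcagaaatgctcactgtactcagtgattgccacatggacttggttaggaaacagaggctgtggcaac
S100a9: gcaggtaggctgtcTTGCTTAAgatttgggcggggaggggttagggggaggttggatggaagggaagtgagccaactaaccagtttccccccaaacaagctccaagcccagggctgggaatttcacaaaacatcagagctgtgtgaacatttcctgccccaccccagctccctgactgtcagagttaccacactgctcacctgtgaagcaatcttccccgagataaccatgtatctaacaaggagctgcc
Both strands of the 250 bases before each start were searched for C/EBP (TTGCNNAA), PU.1 (GAGGAAG) and NF-kB (GGG, any 2 bases, then TTTCC), whose letters do not contain each other. The S100a8 match lies on the opposite strand, 171 to 165 bases before the RefSeq start and 78 to 72 bases before the end of the stretch shown, and the S100a9 match lies 236 to 229 bases before its start. C/EBP letters were found in 9.56% of all 32851 promoter windows of this length, PU.1 letters in 10.6% and NF-kB letters in 1.41%. Retnlg also held a C/EBP match, and Csf3r and Ly6c2 held PU.1 matches. The Csf3r match, 86 to 80 bases before the RefSeq start, lies inside the GENCODE gene. So does a Ly6c2 match 8 to 2 bases before a RefSeq start. No match was found in the windows of Cxcr2, Ccr2, Lyz2 or Il1b. Of the Ccr2 window only 17 bases lie before the GENCODE gene. A match is a description of the letters only.

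S100a8 was near the level of 3 reads before LPS and had its highest values at 12 h. At 0 h it measured 3.75, 2.24, 1.29 and 7.19 at 22 °C and 7.01, 2.57, 5.13, 2.37 and 7.64 at 30 °C. At 4 h the values were 58.2, 54.0, 30.2 and 60.4 at 22 °C and 53.2, 79.5, 48.9 and 47.7 at 30 °C. Every 4 h library lay above every 0 h library. At 12 h S100a8 stood at 121, 110.5, 123, 167 and 115 at 22 °C and at 159, 299.7, 233 and 321 at 30 °C. At 24 h it stood at 105, 88.7, 56.8, 87.1 and 158 at 22 °C and at 91.4, 219, 144, 187 and 155 at 30 °C. The highest group was therefore 30 °C at 12 h, whose lowest library was below the highest 22 °C library.

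Since 0 h, S100a8 rose at 22 °C by 3.60 ± 0.35 at 4 h, 4.94 ± 0.33 at 12 h and 4.53 ± 0.33 at 24 h (limma adjusted p = 3.3e-10, 4.5e-14 and 5.2e-13). At 30 °C it rose by 3.37 ± 0.33, 5.47 ± 0.33 and 4.80 ± 0.31 (adjusted p = 3.9e-10, 3.5e-15 and 2.1e-14). Between 4 h and 12 h it rose again, by 1.34 ± 0.33 at 22 °C (adjusted p = 0.0025) and 2.10 ± 0.35 at 30 °C (adjusted p = 1.5e-05). Between 12 h and 24 h the differences were -0.42 ± 0.31 (adjusted p = 0.45) and -0.67 ± 0.33 (adjusted p = 0.16), within the spread.

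S100a9, the partner subunit, also had its highest values at 12 h. It measured 1.24, 3.34, 1.28 and 0 at 22 °C and 3.48, 2.56, 0, 3.53 and 2.53 at 30 °C before LPS. At 4 h it was at 31.1, 28.6, 30.99 and 40.8 at 22 °C and at 39.0, 38.9, 23.2 and 50.01 at 30 °C. The groups at 0 h and 4 h did not overlap at either temperature. At 12 h S100a9 was at 79.2, 70.8, 53.5, 112 and 86.3 at 22 °C and at 107, 141, 136 and 162 at 30 °C. At 24 h it was at 74.1, 72.0, 34.3, 46.8 and 92.9 at 22 °C and at 47.5, 94.2, 68.7, 85.0 and 105 at 30 °C. At 30 °C all 24 h libraries lay below all 12 h libraries.

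Since 0 h, S100a9 rose by 3.95 ± 0.39, 5.19 ± 0.37 and 4.82 ± 0.37 at 22 °C and by 3.63 ± 0.37, 5.49 ± 0.37 and 4.69 ± 0.35 at 30 °C at 4, 12 and 24 h (limma adjusted p from 5.5e-14 to 9.1e-10). The 4 h to 12 h step was 1.24 ± 0.37 at 22 °C (adjusted p = 0.012) and 1.86 ± 0.39 at 30 °C (adjusted p = 0.00035). The 12 h to 24 h step at 30 °C was -0.80 ± 0.37 (adjusted p = 0.13), which did not pass. The groups did not overlap in this step, for which no share of all genes is given. At 22 °C that step was -0.37 ± 0.35 (adjusted p = 0.58).

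At 12 h the mean S100a8 signal was 127 ± 22.8 at 22 °C (SD, n = 5) and 253 ± 73.3 at 30 °C (SD, n = 4). The difference was 0.95 ± 0.33 and did not pass (limma adjusted p = 0.099). It passed with a pseudocount of 5, with array weights and with the 2 groups fitted alone (lowest adjusted p = 0.033). For S100a9 the means were 80.3 ± 21.3 and 137 ± 22.7, a difference of 0.78 ± 0.37 (adjusted p = 0.27). At 24 h the difference was 0.70 ± 0.31 for S100a8 (adjusted p = 0.12) and 0.35 ± 0.35 for S100a9 (adjusted p = 0.53). Leaving out replicate 5 at 22 °C and 24 h brought S100a8 at 24 h to an adjusted p of 0.047. The rise since 0 h was not shown to differ between temperatures at 12 h, with an interaction for S100a8 of 0.53 ± 0.47 (adjusted p = 0.72).

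**Figure D1:**
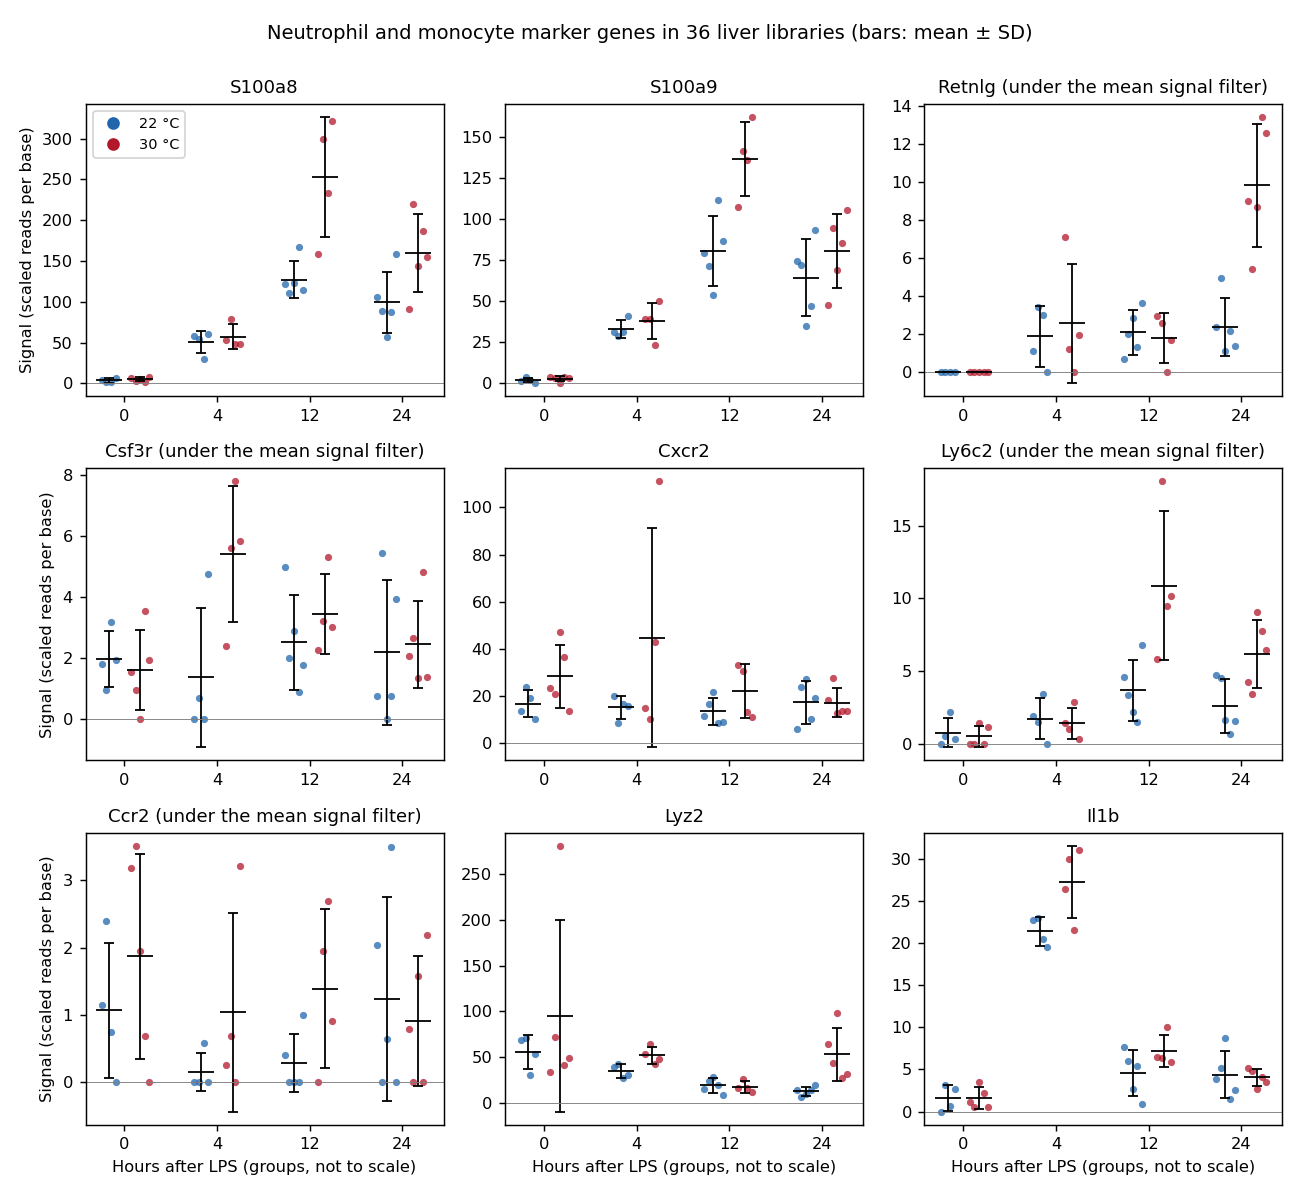
Signal (scaled reads per base, linear axis) of each of the 9 genes against hours after LPS, 1 point per library, blue at 22 °C and red at 30 °C, with mean ± SD; the 4 time groups are evenly spaced and not to scale. S100a8 and S100a9 are highest at 12 h, Il1b at 4 h, and Retnlg at 30 °C and 24 h.

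The ratio of S100a8 to S100a9 was taken from the second deposited column, named TPM, which is scaled per length. Over the 27 libraries after LPS it ran from 1.01 to 2.47 with a median of 1.80 and was above 1 in 27 of 27. In the signal column the order was not the same throughout. At 4 h, S100a8 was below S100a9 there in replicate 3 at 22 °C and in replicate 4 at 30 °C. Group means ran from 1.65 ± 0.46 (SD, n = 4) at 22 °C and 4 h to 2.13 ± 0.35 (n = 5) at 30 °C and 24 h. Reads of this method come from the 3′ ends of transcripts, so a value per length compares genes only roughly. Neither gene shares a stretch of 31 bases with transcripts of another gene in GENCODE mouse release 21.

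Across the 36 samples, the genes whose log2 values followed S100a8 most closely were Saa2 (Pearson r = 0.951), S100a9 (0.951) and Lcn2 (0.946). For S100a9 they were S100a8 (0.951), Lcn2 (0.943) and Hpx (0.942). Saa2 and Hpx are acute phase genes of hepatocytes, and Lcn2, lipocalin 2, is made by hepatocytes and neutrophils. These correlations describe samples that share the same time course.

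Il1b encodes interleukin-1 beta (chr2:129364570-129371139, minus strand), a cytokine of activated monocytes, macrophages and neutrophils, and was highest at 4 h. Before LPS it was at 0, 3.11, 0.597 and 2.66 at 22 °C and at 1.08, 0.595, 3.55, 2.19 and 0.589 at 30 °C. At 4 h it was at 22.8, 23.0, 20.5 and 19.5 at 22 °C and at 26.5, 30.0, 21.6 and 31.1 at 30 °C. All 4 h libraries were above all others of their temperature at 0 h and 12 h. At 12 h Il1b measured 7.69, 6.03, 2.67, 5.43 and 0.854 at 22 °C and 6.46, 6.37, 10.1 and 5.89 at 30 °C. At 24 h it measured 3.83, 5.20, 8.74, 1.51 and 2.54 at 22 °C and 5.20, 4.80, 2.72, 4.05 and 3.54 at 30 °C.

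Il1b rose by 3.34 ± 0.46 at 22 °C (limma adjusted p = 4.3e-07) and by 3.56 ± 0.43 at 30 °C (adjusted p = 4.0e-08) within 4 h. From 4 h to 12 h it fell by 2.21 on the log2 scale at 22 °C (adjusted p = 0.00025) and by 1.80 at 30 °C (adjusted p = 0.0026). At 12 h at 30 °C it still differed from 0 h by 1.76 ± 0.43 (adjusted p = 0.0013). The later differences from 0 h were smaller: 1.13 ± 0.43 at 12 h and 1.12 ± 0.43 at 24 h at 22 °C (adjusted p = 0.035 and 0.040), and 1.06 ± 0.41 at 24 h at 30 °C (adjusted p = 0.046). Those 3 calls ended with a pseudocount of 5, without the filter and with the groups fitted alone. At 22 °C they also ended without replicate 1 or 3 of 0 h. The 12 h call ended without replicate 1, 2 or 4 of 12 h (adjusted p up to 0.19), and the 24 h call without replicate 1, 2 or 3 of 24 h (up to 0.21). At 30 °C the 24 h call ended without replicate 1, 2 or 5 of 0 h or replicate 1, 2, 4 or 5 of 24 h (up to 0.11). The temperatures differed by 0.32 ± 0.46 at 4 h (adjusted p = 0.92) and 0.73 ± 0.43 at 12 h (adjusted p = 0.41).

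Among the 8 tested genes of interleukin-1 processing and reception, 6 rose at 4 h at each temperature and none fell. Over all genes tested, 15.8% were higher and 13.6% lower at 22 °C, and 17.8% and 14.6% at 30 °C. Il1a (mean 10.4, with 34.7 and 37.5 at 4 h) passed the filter partly through its 4 h values. Il1rn, the receptor antagonist that blocks this cytokine, rose within 4 h by 5.37 ± 0.24 in the 22 °C group and by 4.88 ± 0.22 in the 30 °C group (limma adjusted p = 9.5e-19 and 1.8e-18). Il1r1, the signalling receptor, rose by 3.58 ± 0.30 and 3.68 ± 0.28. Il1rap, the accessory chain of the receptor, fell by 1.14 at 22 °C and by 2.02 at 30 °C by 12 h on the log2 scale (adjusted p = 0.00021 and 1.6e-08). At 24 h Il1r1 was lower at 30 °C than at 22 °C by -0.95 ± 0.27 (adjusted p = 0.011). The genes most like Il1b in course were B4galt1 (Pearson r = 0.902 over 36 samples), Vcam1 (0.902) and Pim1 (0.886).

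**Figure D2:**
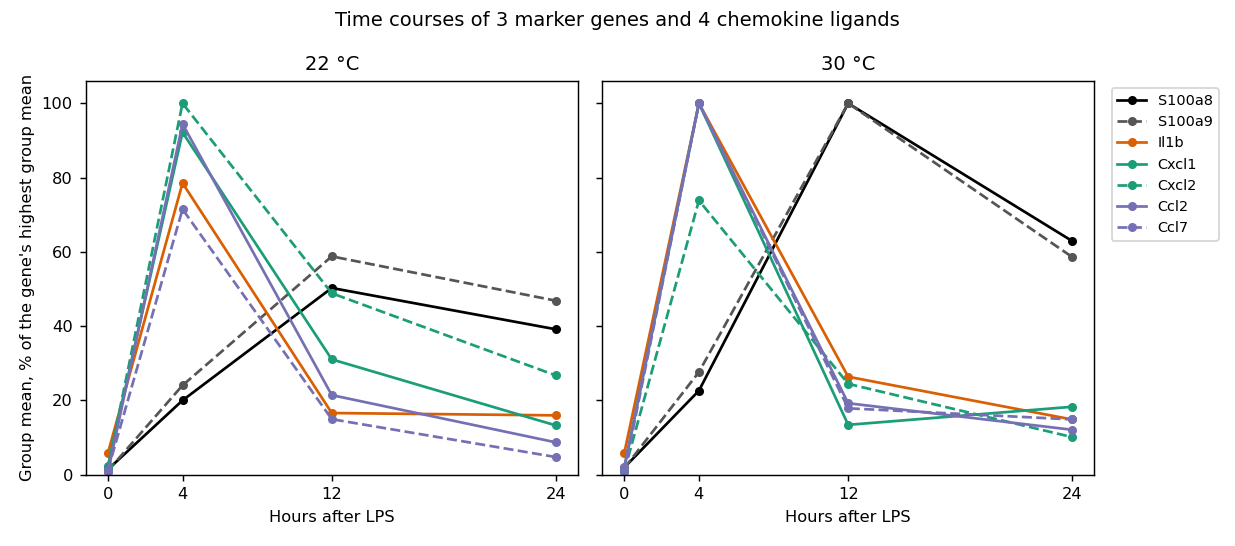
Group mean signal of S100a8, S100a9, Il1b, Cxcl1, Cxcl2, Ccl2 and Ccl7 as a percentage of each gene's own highest group mean (linear axis), against hours after LPS at 22 °C (left) and 30 °C (right). Il1b and the 4 chemokines are highest at 4 h and the S100 genes at 12 h.

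Csf3r and Cxcr2 encode receptors that drive neutrophils out of the marrow and toward inflamed tissue, and Ccr2 does so for monocytes. Csf3r (chr4:126024550-126044440, plus strand) binds granulocyte colony-stimulating factor (Csf3). At 0 h Csf3r had means of 1.96 ± 0.92 (SD, n = 4) at 22 °C and 1.59 ± 1.31 (n = 5) at 30 °C. At 4 h it was at 0, 0.671, 0 and 4.75 at 22 °C and at 2.40, 5.59, 7.78 and 5.84 at 30 °C. The groups overlapped because of replicate 4 at 22 °C. Its 4 h difference between temperatures was 1.78 ± 0.55 (limma adjusted p = 0.25), its change since 0 h was 1.39 ± 0.52 at 30 °C (adjusted p = 0.075) and -0.69 ± 0.55 at 22 °C (adjusted p = 0.57), and the interaction was 2.09 ± 0.76 (adjusted p = 0.56). The change at 30 °C passed with a pseudocount of 5 and without replicate 4 of 0 h or replicate 1 of 4 h (lowest adjusted p = 0.035). Group means at 12 h and 24 h lay between 2.17 and 3.44. Of its transcript's 31-base stretches, 23.1% also occur in other genes, so part of these low values is uncertain.

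Cxcr2 (chr1:74153989-74161246, plus strand), the receptor for CXCL1, CXCL2 and CXCL5, passed in none of the 17 contrasts. Before LPS it measured 13.9, 23.8, 19.4 and 10.5 at 22 °C and 23.3, 21.1, 47.2, 36.8 and 13.8 at 30 °C. At 4 h it measured 20.1, 8.61, 16.6 and 15.7 at 22 °C and 15.2, 10.3, 42.9 and 111 at 30 °C. At 12 h its means were 13.6 ± 5.59 (SD, n = 5) and 22.2 ± 11.5 (n = 4), and at 24 h 17.4 ± 9.01 and 17.2 ± 6.19 (n = 5 each). All groups overlapped, and the values at 0 h were already well above the level of 3 reads. The difference between temperatures at 4 h was 0.98 ± 0.51 (limma adjusted p = 0.65). The change at 30 °C and 4 h was 0.19 ± 0.49 (adjusted p = 0.80), and without replicate 4 at 4 h it was -0.43. In the last 500 bases of the Cxcr2 transcript, where reads of this method fall, 17.7% of 31-base stretches are shared with other genes. The genes most like it were Gnaq (Pearson r = 0.782 over 36 samples), Zfp369 (0.723) and the olfactory receptor gene Olfr607 (0.694).

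Ccr2 (chr9:124101950-124113557, plus strand) was at or near the limit of detection in every group. Its group means ran from 0.144 ± 0.288 (SD, n = 4) at 22 °C and 4 h to 1.87 ± 1.53 (n = 5) at 30 °C before LPS, and no library exceeded 3.52. At 4 h it differed from 0 h by -0.75 ± 0.54 at 22 °C (limma adjusted p = 0.50) and by -0.52 ± 0.51 at 30 °C (adjusted p = 0.51). No change in Ccr2 since 0 h passed at either temperature, and at this depth a small change could be missed.

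Most ligands of these receptors were highest at 4 h, when S100a8 and S100a9 had also risen but not yet reached their highest values. All 6 tested ligands (Cxcl1, Cxcl2, Cxcl5, Ppbp, Ccl2 and Ccl7) rose at 4 h at both temperatures. Of all genes tested, 15.8% were higher at 22 °C and 17.8% at 30 °C. Cxcl5 and Ppbp (means 9.76 and 6.86) passed the filter partly through their 4 h values, so this count depends on the filter. Cxcl1 rose by 5.52 ± 0.44 in the 22 °C group and by 5.87 ± 0.41 in the 30 °C group (limma adjusted p = 2.6e-12 and 1.4e-13). Cxcl2 rose by 5.45 ± 0.60 and 6.09 ± 0.57. Ccl2, the main CCR2 ligand, rose by 6.44 ± 0.50 and 5.75 ± 0.47, and Ccl7, another, by 5.03 ± 0.55 and 5.79 ± 0.52. Between 4 h and 12 h, 4 of the 6 fell at each temperature and none rose. Over all genes tested, 14.4% were lower and 11.9% higher at 22 °C, and 17.9% and 12.3% at 30 °C. In that step Cxcl1 fell by 1.66 at 22 °C and by 2.95 at 30 °C on the log2 scale (adjusted p = 0.0029 and 2.6e-06), and Ccl2 fell by 2.18 and by 2.38. Over those same hours S100a8 and S100a9 rose. Csf3, the CSF3R ligand, was listed at 0 in every 0 h library and reached 3.00 ± 1.61 (SD, n = 4) at 22 °C and 1.13 ± 1.14 (n = 4) at 30 °C at 4 h, at the limit of detection. Ccl12, a further CCR2 ligand, was listed at 0 in all libraries of 0 h and averaged 17.7 at 22 °C and 16.9 at 30 °C at 4 h, while Cxcl3 did not exceed a group mean of 3.13.

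Ly6c2 encodes a surface protein of classical monocytes, also present on some lymphocytes and endothelial cells. Its neighbour Ly6c1 lies 59328 bp away on chromosome 15 (GRCm38; Ly6c1 at chr15:75044018-75048830 and Ly6c2 at chr15:75108158-75111970, both minus strand). The coding sequences, 396 bases each, are 97.7% identical, with 9 differing bases, and 48.1% of the 31-base stretches in the last 500 bases of Ly6c2 transcripts occur elsewhere, mostly in Ly6c1. The last 90 coding bases from GENCODE mouse release 21 are shown because they make plain how few positions can tell the genes apart, with the 2 differing bases in capitals.
Ly6c2: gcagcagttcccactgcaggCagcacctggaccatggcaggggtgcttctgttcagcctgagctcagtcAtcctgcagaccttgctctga
Ly6c1: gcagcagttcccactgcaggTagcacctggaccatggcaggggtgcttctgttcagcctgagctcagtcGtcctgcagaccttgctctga
Values of either gene therefore depend on how reads were divided between them.

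Before LPS, Ly6c2 was at or under the level of 3 reads in every library, at 0, 0.539, 2.22 and 0.346 at 22 °C and at 0, 0, 1.47, 0 and 1.14 at 30 °C. At 12 h it was at 4.59, 3.40, 2.22, 1.51 and 6.82 at 22 °C and at 5.84, 18.0, 9.48 and 10.2 at 30 °C. At 24 h it was at 4.72, 4.53, 1.66, 0.653 and 1.58 at 22 °C and at 4.25, 3.42, 9.06, 7.76 and 6.46 at 30 °C. At 30 °C every library of 12 h and 24 h lay above every library of 0 h. In the fit without the filter, Ly6c2 rose by 2.99 ± 0.47 at 12 h (limma adjusted p = 1.1e-05) and 2.30 ± 0.44 at 24 h (adjusted p = 0.00035) at 30 °C. In that fit 15.1% of genes were called at 12 h and 10.9% at 24 h. At 22 °C it rose by 1.43 ± 0.47 at 12 h (adjusted p = 0.031, 16.3% of genes called) and differed by 1.01 ± 0.47 at 24 h (adjusted p = 0.17). The 12 h call at 22 °C ended with a pseudocount of 5, with the groups fitted alone, without replicate 1, 2 or 4 of 0 h and without replicate 1, 2 or 5 of 12 h (adjusted p up to 0.12). The temperatures differed by 1.36 ± 0.47 at 12 h (adjusted p = 0.21) and by 1.08 ± 0.44 at 24 h (adjusted p = 0.18), which did not pass. Ly6c1 had means of 2.26 ± 1.36 (SD, n = 5) and 4.04 ± 2.89 (n = 4) at 12 h, in the same order.

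Lyz2 (chr10:117277331-117282321, minus strand) encodes the lysozyme of monocytes, macrophages and Kupffer cells, and moved the opposite way to the S100 genes. Before LPS it measured 69.0, 70.6, 30.5 and 53.8 at 22 °C and 33.4, 72.3, 281, 40.9 and 48.9 at 30 °C. At 4 h it measured 38.6, 42.9, 26.8 and 30.3 at 22 °C and 52.8, 63.8, 42.7 and 48.3 at 30 °C. These groups overlapped with 0 h. At 12 h Lyz2 was at 14.8, 23.7, 28.4, 19.3 and 8.19 at 22 °C and at 15.7, 26.3, 15.7 and 11.7 at 30 °C, below every 0 h library of the same temperature. At 24 h it was at 13.99, 6.15, 9.86, 13.9 and 19.0 at 22 °C and at 64.4, 43.9, 98.6, 26.8 and 31.2 at 30 °C. All 5 libraries at 30 °C lay above all 5 at 22 °C, as the groups did for 11.3% of the genes tested, in either direction.

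From 0 h to 12 h, Lyz2 fell by 1.56 on the log2 scale at 22 °C (limma adjusted p = 0.0042) and by 1.95 at 30 °C (adjusted p = 0.00045). At 24 h it was still lower at 22 °C, by -2.08 ± 0.43 (adjusted p = 0.00024). At 30 °C the 24 h difference from 0 h was -0.50 ± 0.41 (adjusted p = 0.39), and without replicate 3 of 0 h it was 0.01. At 30 °C Lyz2 fell by 1.57 from 4 h to 12 h (adjusted p = 0.0086) and rose by 1.45 ± 0.43 from 12 h to 24 h (adjusted p = 0.015). That rise did not pass without replicate 4 of 12 h or replicate 3 of 24 h (adjusted p up to 0.060). Lyz1, which shares 32.8% of the 31-base stretches of Lyz2, was listed at 0 in every library but 1 (0.938 there). The genes most like Lyz2 in course were St13 (Pearson r = 0.885 over 36 samples), Ptgr2 (0.865) and Slc25a13 (0.854).

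At 24 h the mean Lyz2 signal was 12.6 ± 4.83 at 22 °C and 53.0 ± 29.4 at 30 °C (SD, n = 5 each), a difference of 1.91 ± 0.41 (limma adjusted p = 0.00098). Lyz2 was the 1 gene called of the 5 tested at 24 h, where 9.93% of all genes tested were higher at 30 °C, and S100a8 joined it without replicate 5 at 22 °C. The adjusted p for Lyz2 stayed at or under 0.0067 in every alternative run. The interaction, or how far the change from 0 h to 24 h was larger in the 30 °C group, was 1.58 ± 0.60 for Lyz2 (adjusted p = 0.095). It passed with array weights and without replicate 3 at 30 °C and 0 h, the library with the value of 281 (lowest adjusted p = 0.0073).

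Retnlg (chr16:48872621-48874496, plus strand), which encodes resistin-like gamma and is expressed in neutrophils of blood and marrow, was listed at 0 in all 9 libraries at 0 h. It measured 1.10, 3.43, 2.97 and 0 at 22 °C and 7.10, 1.20, 0 and 1.93 at 30 °C at 4 h. At 12 h it measured 0.683, 1.98, 2.84, 1.29 and 3.64 at 22 °C and 2.95, 2.54, 0 and 1.67 at 30 °C. At 24 h it was at 2.33, 4.92, 1.10, 2.14 and 1.35 at 22 °C and at 9.01, 5.41, 8.70, 13.4 and 12.6 at 30 °C. Only the last group lay above the level of 3 reads in every library, with a mean of 9.82 ± 3.23 (SD, n = 5) against 2.37 ± 1.52 (n = 5) at 22 °C.

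In the fit without the filter, Retnlg at 24 h was higher at 30 °C than at 22 °C by 1.73 ± 0.45 (limma adjusted p = 0.014), and the groups did not overlap. In that fit 5.91% of genes were called, and the groups of 5.08% of genes did not overlap. At 30 °C it rose from 12 h to 24 h by 2.07 ± 0.47 (adjusted p = 0.0043, with 6.91% of genes called). The difference between temperatures did not pass without replicate 3 at 22 °C (adjusted p = 0.051). The interaction at 24 h was 1.73 ± 0.65 (adjusted p = 0.20), and it passed with a pseudocount of 5 and with the groups fitted alone (lowest adjusted p = 0.031). Retnlg shares 5.51% of its 31-base stretches with Retnla and none with other genes.

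**Figure D3:**
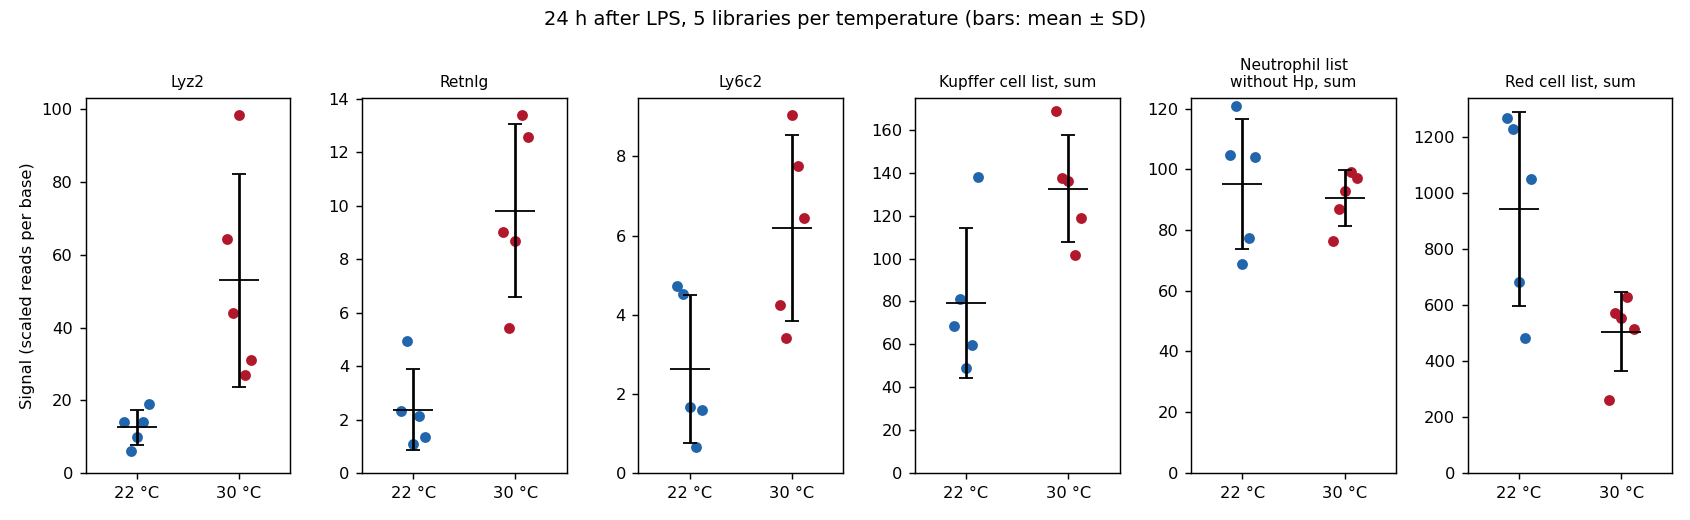
Signal (scaled reads per base, linear axes from 0) at 24 h of Lyz2, Retnlg and Ly6c2 and the summed signal of 3 marker lists, 1 point per library, 5 libraries at each temperature, with mean ± SD. Lyz2 and Retnlg do not overlap between temperatures, and the neutrophil list without Hp has similar levels at both.

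Other cell markers differed at 24 h beside Lyz2 and Retnlg, and their part in those results was not tested. The 12 Kupffer cell genes summed to 48.8, 59.6, 68.4, 80.9 and 138 at 22 °C and to 102, 119, 136, 137 and 169 at 30 °C, and 3 of 11 tested were higher at 30 °C (C1qc, Cd163 and Slc40a1), where 9.93% of all genes tested were higher and 8.71% lower. Not every Kupffer cell gene went this way: Clec4f averaged 8.17 at 22 °C and 8.12 at 30 °C, and Timd4 averaged 4.50 and 1.51. The 8 endothelial genes summed to 77.4 to 197 and 131 to 229, with 4 of 7 tested higher. Ehd3, an endothelial gene, was higher by 3.80 ± 0.31 (limma adjusted p = 1.6e-10). Not every endothelial gene went this way. Lyve1 averaged 37.5 at 22 °C and 24.5 at 30 °C, Gpihbp1 13.3 and 10.8, and Cdh5 11.6 and 8.28. The 5 red cell genes, a sign of blood content, summed to 482 to 1267 and 262 to 626, with 2 of 4 tested lower (Hba-a2 and Hbb-bt). The sum of the 5 platelet genes, also from blood, went the other way, at 7.32 to 22.2 at 22 °C and 17.8 to 45.2 at 30 °C. Among them Pf4, platelet factor 4, was higher at 30 °C by 2.02 ± 0.54 (limma adjusted p = 0.0072). The other platelet genes were low and mixed. Gp1bb averaged 2.64 at 22 °C and 6.57 at 30 °C, while Ppbp (3.17 and 2.13), Itga2b (2.65 and 0.76) and Gp9 (0.22 and 0) averaged lower at 30 °C. The 23 other neutrophil genes without Hp summed to 68.9 to 121 at 22 °C and 76.4 to 99.1 at 30 °C at 24 h, and these ranges overlapped. At 12 h the same list summed to 61.6 to 124 at 22 °C and 141 to 172 at 30 °C, with no overlap. With Hp kept, the 24 genes summed at 12 h to 2438 to 3110 at 22 °C and 2552 to 3449 at 30 °C, and these ranges overlapped. Hp was set aside after the values were seen, and the difference between these sums was not tested.

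Kupffer cell genes fell over the same hours as Lyz2. Of the 11 tested, 6 were lower at 12 h than at 0 h at 22 °C and 7 at 30 °C, with 1 higher at each (Marco). Over all genes tested, 20.6% were lower and 20.7% higher at 22 °C, and 18.9% and 19.3% at 30 °C. Vsig4, a complement receptor of Kupffer cells, fell by 3.15 in the 22 °C group and by 4.10 in the 30 °C group on the log2 scale (limma adjusted p = 2.4e-06 and 1.5e-08). Clec4f, another Kupffer cell gene, fell by 2.28 and by 1.93. The median sum of the list went from 288 and 298 at 0 h to 66.1 and 75.7 at 12 h and then to 68.4 at 22 °C and 136 at 30 °C at 24 h. Their part in the Lyz2 course was not tested.

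Of a list of 24 other neutrophil genes, 6 were tested, and the rest were under the filter. At 4 h, 5 of 6 rose at 22 °C and 6 of 6 at 30 °C, and at 12 h 6 and 5 rose. Over all genes tested, 15.8% at 22 °C and 17.8% at 30 °C were higher at 4 h, and 20.7% and 19.3% at 12 h. Fpr2, a receptor for bacterial formyl peptides, rose within 4 h by 4.83 ± 0.57 in the 22 °C group and by 3.69 ± 0.54 in the 30 °C group (limma adjusted p = 2.8e-08 and 1.4e-06). Fpr1 rose by 2.80 ± 0.55 and 2.02 ± 0.52. Hp, haptoglobin, is also a main acute phase product of hepatocytes, and rose by 2.40 ± 0.16 and 2.58 ± 0.15. Elane, a protease gene of neutrophil precursors, was listed at 0 throughout, and the group means of Ly6g, the surface marker of mature neutrophils, did not exceed 0.409.

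Of 22 other monocyte and myeloid genes, 13 were tested. At 4 h 7 rose and 1 fell at each temperature. Over all genes tested, 15.8% were higher and 13.6% lower at 22 °C at 4 h, and 17.8% and 14.6% at 30 °C. Plac8, a gene of myeloid cells, rose by 2.10 ± 0.38 in the 22 °C group and by 2.67 ± 0.36 in the 30 °C group (limma adjusted p = 5.0e-05 and 3.5e-07). The 1 that fell was Csf1r, the receptor for macrophage colony-stimulating factor, carried by monocytes and Kupffer cells. At 24 h 4 were higher at 30 °C, Ccl9, Itgb2, Ms4a6d and Tyrobp, and none lower. Over all genes tested, 9.93% were higher at 30 °C at 24 h and 8.71% lower. Of 10 tested adhesion genes, 5 rose at 22 °C and 6 at 30 °C by 4 h, against the same 15.8% and 17.8% of all genes. Vcam1, which holds leukocytes at the vessel wall, rose by 3.52 ± 0.32 and 3.32 ± 0.30. At 24 h, 2 of the 10 were higher at 30 °C than at 22 °C, Itgal and Itgb2, against 9.93% of all genes, and none lower. Itgal, an integrin chain of leukocytes, ran from 0 to 9.28 at 22 °C and from 11.4 to 20.4 at 30 °C, a difference of 2.32 ± 0.50 (limma adjusted p = 0.00094). Itgam, the integrin chain of neutrophils, monocytes and macrophages, ran from 5.22 to 13.2 and from 19.7 to 26.7. Those groups did not overlap either, as for 11.3% of genes tested in either direction. The difference of 1.37 ± 0.52 for Itgam did not pass (limma adjusted p = 0.061). It passed with a pseudocount of 5, the TPM column, upper-quartile rescaling, array weights, the groups fitted alone, both libraries that stand apart left out, and without replicate 5 at 22 °C (lowest adjusted p = 0.0050). Lymphoid and dendritic cell genes were mostly under the filter: 1 of 11 T and NK cell genes, 1 of 5 B cell genes and 1 of 6 dendritic cell genes were tested.

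Set against all genes, the 5 tested markers moved as follows. At 4 h, 3 of 5 were higher than at 0 h at each temperature and none lower (S100a8, S100a9 and Il1b), where 15.8% of genes were higher and 13.6% lower at 22 °C and 17.8% and 14.6% at 30 °C. The median difference of the 5 was 3.34 at 22 °C and 3.37 at 30 °C, against -0.10 and -0.04 over all genes. At 22 °C that median is the value of Il1b. The mean signal of Il1b was 8.41, with 21.4 and 27.3 at 4 h against at most 7.20 in any other group. Il1b therefore passed the filter partly through its 4 h values, and its calls at 4 h depend on this. At 12 h the same 3 were higher and Lyz2 was lower at both temperatures, with 20.7% of genes higher and 20.6% lower at 22 °C and 19.3% and 18.9% at 30 °C. At 24 h these 3 were higher at each temperature and Lyz2 was lower at 22 °C, with 19% higher and 18% lower at 22 °C and 15.3% and 14.4% at 30 °C. Between 4 h and 12 h, S100a8 and S100a9 rose and Il1b fell at both temperatures, joined by a fall of Lyz2 at 30 °C, with 11.9% of genes higher and 14.4% lower at 22 °C and 12.3% and 17.9% at 30 °C. Between 12 h and 24 h, 0 of 5 were called at 22 °C (0 at an unadjusted limma p under 0.05, 10.6% of genes called) and 1 at 30 °C (Lyz2, where 11.6% of genes were higher).

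Between temperatures, 0 of 5 were called at 0 h and 0 at 4 h, with 0 at an unadjusted limma p under 0.05 each time, where 0.506% and 0.207% of genes were called. At 12 h 0 were called, against 2 at an unadjusted p under 0.05 (S100a8 and S100a9), with 4.26% of genes called. The interactions called 0 of 5 at 4 h and 12 h, with 0 at an unadjusted p under 0.05 each time, and 0 at 24 h with 1 (Lyz2), where 0.0115%, 0.276% and 8.95% of genes were called. The contrasts since 0 h at one temperature share their 0 h samples.

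**Figure D4:**
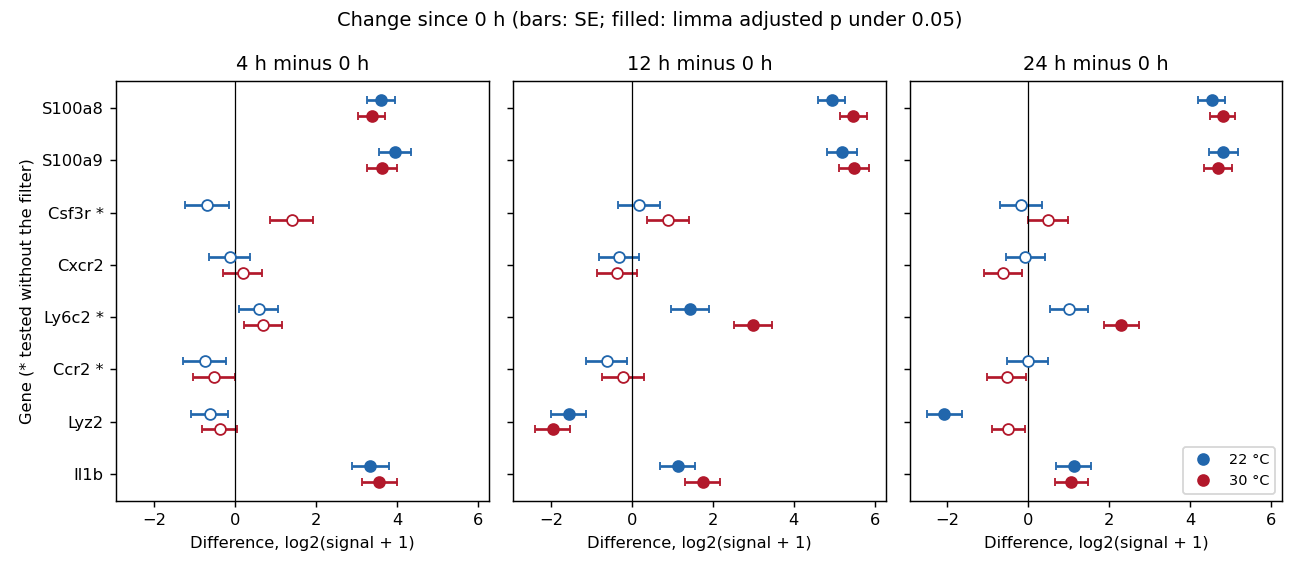
Difference from 0 h on the log2(signal + 1) scale (x axis, bars are SE) at 4, 12 and 24 h for the 8 genes other than Retnlg, blue at 22 °C and red at 30 °C; filled points have a limma adjusted p under 0.05, and genes with an asterisk come from the fit without the filter. S100a8 and S100a9 are filled at all times, Lyz2 lies to the left at 12 h, and Cxcr2, Csf3r and Ccr2 are open throughout.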

How the data were processed

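Liver RNA was sequenced by CEL-Seq2, a 3′ end method, in 36 samples. The authors deposited a signal, scaled reads per base, and a second column named TPM for each Ensembl gene and sample, made with Trimmomatic, kallisto and sleuth per the submitters' processing notes. The sources used here name no tool version, genome build or scaling between libraries, and the columns are not counts. Reads per library were estimated from the commonest positive value in each library, taken as the worth of a read. Some values lie below it, so these depths and the levels in reads are approximate. Of 34829 gene identifiers, 34406 matched a symbol in the GENCODE mouse annotation and 423 did not.

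The test was limma (version 3.58.1, R 4.3.3; lmFit and eBayes with trend) on log2(signal + 1), in 1 fit of all 36 samples with 8 group means and no covariate. Genes entered if their signal averaged 5 or more (8702), and genes under it come from a fit of the 22490 genes above 0. Tests are two-sided, with Benjamini-Hochberg adjustment over all genes of a contrast and a threshold of 0.05. Named genes were drawn from the 9 markers, the 9 ligands of their receptors, Ly6c1 and Lyz1. Others were drawn from the 3 genes of highest mean signal in each other list and the 3 genes most correlated with each tested marker. Not all of these are discussed: Gzmb, Stab1, Pecam1, Ms4a1 and Siglech, among others, are left out. Elane, Ly6g, Itgal, Itgam, Timd4, Itga2b, Gp9, Gpihbp1, Cdh5, Il1a and genes named only to spell out a count were chosen after their values were seen. The neutrophil list without Hp was also formed after the values were seen. The markers and lists were chosen with earlier results of these data known. Alternatives were pseudocounts of 0.5 and 5, no filter, the TPM column, upper-quartile rescaling, array weights, groups fitted alone, a replicate block, and each replicate left out. Leaving out both libraries that stand apart, and a block on the numbers in the sample descriptions, were chosen after seeing the data. On simulated data for the 12 h temperature contrast (8702 genes), 30 of 100 genes changed by 1 log2 unit were called and 80 of 100 changed by 2, with 2 false calls. Summaries and plots used Python 3.11.15, pandas 2.3.3, numpy 2.4.6 and matplotlib 3.10.9.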

Additional observations from a re-analysis of the deposited data

Results flagged for a closer look

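In 6 of 70 groups of 4 or 5 libraries, 1 library stood far from the others by Dixon's test at the 95% level, where chance alone gives about 1 in 20. S100a8 was at 167 in replicate 4 at 22 °C and 12 h, the highest of its group. S100a9 was listed at 0 in replicate 3 at 30 °C and 0 h, where the other 4 libraries lay between 2.53 and 3.53. Csf3r was at 4.75 in replicate 4 at 22 °C and 4 h, near the level of 3 reads. Ccr2 was at 0.576 in replicate 3 of the same group, under the level of 1 read, where the other 3 libraries were listed at 0. Lyz2 was at 281 in replicate 3 at 30 °C and 0 h, where the other 4 libraries lay between 33.4 and 72.3. Il1b was at 10.1 in replicate 3 at 30 °C and 12 h, where the others lay between 5.89 and 6.46.

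The change of Il1rn since 0 h differed between temperatures at 24 h, by -1.15 ± 0.31 (limma adjusted p = 0.015). It did not pass with the groups fitted alone (adjusted p = 0.074).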

How the results depend on the processing

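The number of markers called equalled the reported one in 148 of 170 checks over settings other than leaving out a replicate, and in 160 of 170 it stayed within 1.5 times. Without the filter the count runs over all 9 markers, and otherwise over the 5 tested. Within 1.5 times, Il1b was lost with a pseudocount of 5 and with the groups fitted alone, leaving 3 at 12 h and at 24 h since 0 h at 22 °C and 2 at 24 h at 30 °C. Between temperatures at 12 h, 1 (S100a8) was called with a pseudocount of 5, array weights or the groups fitted alone. At 24 h, 2 of the 9 were called without the filter (Retnlg and Lyz2). From 12 h to 24 h at 30 °C, 2 were called with a pseudocount of 5, array weights or the groups fitted alone (S100a9 and Lyz2) and without the filter (Retnlg and Lyz2). For the 24 h interaction, 1 (Lyz2) was called with array weights and with both libraries that stand apart left out.

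With each replicate left out in turn, the count ran from 1 to 2 for temperature at 24 h, 3 to 4 for 12 h and for 24 h since 0 h at 22 °C, 2 to 3 for 24 h since 0 h at 30 °C, 0 to 1 from 12 h to 24 h at 30 °C, and 0 to 1 for the 24 h interaction. It did not move in the other contrasts, and it equalled the reported count in 159 of 180 such checks.

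The difference of Lyz2 between temperatures at 0 h was -0.18 without replicate 3 at 30 °C and 0 h, alone or with both libraries left out, and ran from -0.18 to 0.58 over single replicates left out. Its 4 h change at 30 °C was 0.13 and 0.16 in those settings (range -0.63 to 0.13), and its 24 h change was 0.011 both times (range -0.76 to 0.011). The 4 h change of Cxcr2 at 30 °C was -0.24 with array weights, -0.03 without replicate 5 of 0 h, -0.43 without replicate 4 of 4 h and -0.23 with both libraries left out (range -0.43 to 0.67). None of these passed the threshold in either form, and the cause was not tested.

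A replicate block left the number called unchanged, for example at 1 for temperature at 24 h. The labels do not say whether the numbers pair the samples. Correlations of same-numbered samples ran from -0.125 to 0.106, and in 0 of 14 contrasts was every pair over 0.1. A weak pairing could be missed by this check. In 2 samples at 30 °C and 12 h the description gives another number than the title used here. With the descriptions' numbers the correlations had the same range, again in 0 of 14 contrasts was every pair over 0.1, and the block changed no count. Upper-quartile rescaling moved the median of all genes by over 0.1 in some contrasts, most from 4 h to 12 h at 30 °C (-0.03 to 0.21), and changed no count. Depth limits Ccr2, Csf3r, Ly6c2 and Retnlg most.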
